A study of Mus musculus with 4 samples.

Results

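The 53 genes described here make and load the molecules that show peptides to T cells. They are all listed genes whose symbol starts with H2-, the name of the mouse major histocompatibility complex (MHC), plus B2m, Tap1, Tap2, Tapbp, Psmb8, Psmb9, Psmb10, Nlrc5, Cd74 and Ciita. The deposited tables list 21883 genes. By symbol and role, 38 of the members belong to class I and 12 to class II. The other 3 are H2-Ke2 and H2-Ke6, which carry the H2- name only from their place in the complex, and H2-Gs10, which the naming rule put in neither class. In DRG 32 members reached 1 FPKM (sequenced fragments per kilobase of a transcript, corrected for library size) in at least 1 library, and in dorsal cord 29 did. Such genes are called measured below.

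Wild-type young adult males labelled BL6/C57 had both the sciatic and the femoral nerve of the left leg transected, and tissue was taken on day 7. Dorsal root ganglia (DRG, lumbar levels 4 to 6) hold the cell bodies of sensory neurons, and lumbar dorsal spinal cord is where those neurons project. Both tissues were sampled on the ipsilateral and on the contralateral side, which makes 4 groups of 1 library each. With 1 library per group there is no replicate check, and p-values were not computed here. Contralateral tissue comes from the same operated mice and is not uninjured tissue. The sources used here do not say if animals were pooled. Summed FPKM lay between 425636 and 442298 in the 4 libraries, and read depth is not given. All 8 sensory neuron markers were measured in DRG, including Avil at 270.03 FPKM ipsilaterally and 272 contralaterally, which was at 0.0773 and 0 FPKM in cord. Of 10 dorsal cord markers, 9 were measured in cord and 5 in DRG, so neither list is confined to its tissue.

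Class I molecules sit on nearly all cells and show peptides cut from the cell's own proteins, mostly to CD8 T cells. A heavy chain (H2-K1 and H2-D1 in this strain, with many less polymorphic relatives of the Q, T and M series) pairs with the light chain B2m, and its peptides are cut by the immunoproteasome and pumped into the endoplasmic reticulum by the TAP transporter. Class II molecules are made mainly by macrophages, dendritic cells and B cells, take peptides from engulfed material and show them to CD4 T cells. Their 2 chains are held by the invariant chain Cd74 until H2-DM exchanges its fragment for a peptide. In the nervous system, macrophages of the ganglia carry class II, while microglia of healthy cord carry little.

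In ipsilateral DRG the 2 classes stood on opposite sides of their contralateral levels. Of 22 measured class I genes, 21 had a log2 ratio below 0 (43.9% of all 13137 measured genes did), with a median of -0.40. Of 7 measured class II genes, 6 had a ratio above 0 (56.1% of all measured genes), with a median of 0.29. The ratio here is the log2 of (ipsilateral + 1) over (contralateral + 1) FPKM, and its median over all measured genes was 0.05. The class II median exceeded the class I median by 0.69. Among the 21 class I genes below 0, Nlrc5 reached 1 FPKM only contralaterally and so had to lie there. In ipsilateral dorsal cord class I lay on the other side: 16 of 22 measured genes were above 0 (51.6% of all 13351 measured genes) and 6 below (48.4%), with a median of 0.48. The all-gene median was 0.02. Of the 16 class I genes above 0, H2-Bl, H2-K2 and Tap1 reached 1 FPKM only ipsilaterally and so had to lie there. Without a filter on low values the cord class I median was 0. Cd74 and 4 of the 5 class II chain genes were under 1 FPKM on both sides of cord. No test of the difference between classes or between tissues was possible with 1 library per group.

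**Figure D1:**
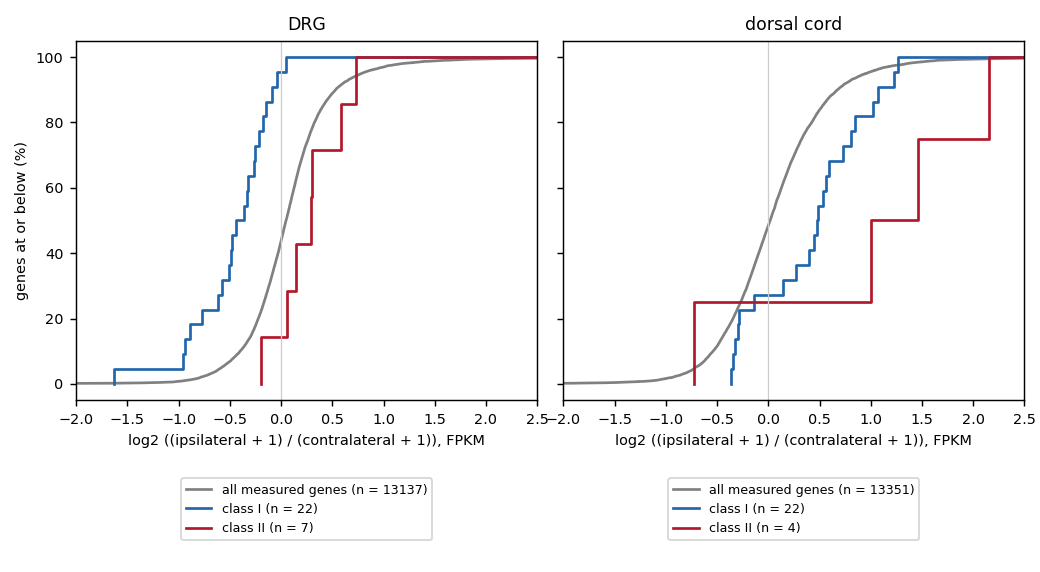
Cumulative share of genes (%) against the log2 ratio of (ipsilateral + 1) over (contralateral + 1) FPKM, for class I members, class II members and all measured genes, in DRG (left) and dorsal cord (right). In DRG the class I curve lies left of all genes (median -0.40) and the class II curve right of it (0.29), and in cord class I lies right of all genes (0.48) while the class II curve rests on 4 genes. In cord 3 class I genes reached 1 FPKM only ipsilaterally and so had to lie above 0.

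Promoter windows from RefSeq (build GRCm38.p6, 250 bases before to 50 after each gene's start) were matched by symbol to 36 of the 53 members. They are shown for 6 genes picked as examples: H2-K1, H2-D1 and H2-T22 for class I, Tap1 for peptide supply, and H2-Aa and H2-Eb1 for class II. Capitals mark matches, on either strand, to 5 short motifs linked to MHC genes, and no matches overlapped in the windows shown. The motifs are the Y box (CTGATTGG), the X1 box core (AGCAACNGA), a kappaB core (GGGATTCC), an IRF element (GAAANNGAA) and a GAS element (TTCNNNGAA).
H2-K1 (chr17:34000284-34000583, minus strand): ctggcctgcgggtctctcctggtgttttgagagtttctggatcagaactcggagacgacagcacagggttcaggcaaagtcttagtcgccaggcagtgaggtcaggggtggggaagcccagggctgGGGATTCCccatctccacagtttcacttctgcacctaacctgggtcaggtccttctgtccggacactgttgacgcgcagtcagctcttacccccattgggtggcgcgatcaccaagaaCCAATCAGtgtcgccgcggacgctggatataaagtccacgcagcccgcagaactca
H2-D1 (chr17:35262844-35263143, plus strand): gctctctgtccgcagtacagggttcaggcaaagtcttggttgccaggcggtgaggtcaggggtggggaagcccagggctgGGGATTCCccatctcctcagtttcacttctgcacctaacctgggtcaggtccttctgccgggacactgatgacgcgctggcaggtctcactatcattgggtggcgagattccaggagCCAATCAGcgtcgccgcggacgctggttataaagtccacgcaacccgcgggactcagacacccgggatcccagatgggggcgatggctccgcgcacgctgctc
H2-T22 (chr17:36042693-36042992, minus strand): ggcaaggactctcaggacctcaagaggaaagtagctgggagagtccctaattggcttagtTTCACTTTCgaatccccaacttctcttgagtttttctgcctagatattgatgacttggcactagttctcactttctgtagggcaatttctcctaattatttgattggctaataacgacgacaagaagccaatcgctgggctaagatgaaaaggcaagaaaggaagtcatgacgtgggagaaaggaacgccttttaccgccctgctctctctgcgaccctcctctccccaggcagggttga
Tap1 (chr17:34187306-34187605, plus strand): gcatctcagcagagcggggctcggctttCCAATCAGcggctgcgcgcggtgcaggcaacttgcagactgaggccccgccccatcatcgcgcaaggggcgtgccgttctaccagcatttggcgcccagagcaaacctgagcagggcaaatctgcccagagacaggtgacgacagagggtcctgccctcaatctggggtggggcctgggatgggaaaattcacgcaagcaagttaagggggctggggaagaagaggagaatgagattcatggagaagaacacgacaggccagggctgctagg
H2-Aa (chr17:34287774-34288073, minus strand): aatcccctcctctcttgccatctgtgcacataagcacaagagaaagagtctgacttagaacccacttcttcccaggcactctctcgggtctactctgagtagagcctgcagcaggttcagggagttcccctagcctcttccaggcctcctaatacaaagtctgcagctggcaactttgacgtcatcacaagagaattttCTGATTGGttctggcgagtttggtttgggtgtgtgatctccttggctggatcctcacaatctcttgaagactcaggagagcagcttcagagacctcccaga
H2-Eb1 (chr17:34305617-34305916, plus strand): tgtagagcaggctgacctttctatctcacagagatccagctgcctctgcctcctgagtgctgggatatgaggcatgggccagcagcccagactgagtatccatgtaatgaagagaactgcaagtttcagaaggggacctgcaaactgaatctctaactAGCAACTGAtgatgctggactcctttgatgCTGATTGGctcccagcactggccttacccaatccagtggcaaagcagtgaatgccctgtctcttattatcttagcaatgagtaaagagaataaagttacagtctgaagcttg

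The Y box was in windows of both classes. It was found in 15 of 27 class I genes with a window (17 of 29 windows) and in 4 of 8 class II genes (4 of 9 windows). These include H2-M1, H2-M9, H2-M10.1, H2-M10.3 to H2-M10.6, H2-M11 and H2-Eb2, all under 1 FPKM in all 4 libraries. Of all 32851 windows of the same length, 4.10% held the Y box. In H2-Aa it starts at position -51 and in H2-Eb1 at -62, counting back from -1 just before the gene's start. The H2-K1 window shown has it at -6 and H2-D1 at -53, both on the opposite strand. The kappaB core was in 4 class I genes (H2-D1, H2-K1, H2-Q6 and H2-Q7) and in 0 class II genes, against 1.06% of all windows. The X1 core was in H2-Eb1 and H2-Eb2 and in 0 class I genes, against 1.34%. The IRF element was in B2m, H2-T22 and H2-T23 and in 0 class II genes, against 8.56%, and the GAS element in 3 class I genes and 1 class II gene, against 8.30%. These matches are descriptions of letters and not binding sites. Only exact matches to the letters given were counted. Variants of a motif are missed, so a window without a match, such as H2-K1 or H2-D1 for the IRF element, may still hold one.

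Among the class I heavy chains in DRG, the classical pair carried most of the signal. H2-K1, on mm9 chromosome 17 from 34132956 to 34137278, had 46.9 FPKM in ipsilateral DRG and 70.4 FPKM in contralateral DRG (log2 ratio -0.57). Its fold of 0.667 had a 95% interval of 0.469 to 0.949. Such intervals come from the standard error that the test statistic of the authors' deposited table implies, and leave out variation between animals. H2-D1, the other classical heavy chain, was at 95.2 FPKM ipsilaterally and 107 contralaterally (-0.17), and its fold had an interval of 0.624 to 1.26. B2m, the light chain shared by every class I molecule, was at 262 FPKM ipsilaterally and 268 contralaterally (-0.04). Over all 30 heavy chain genes the summed level was 230.4 FPKM ipsilaterally and 305 contralaterally, so B2m stood at 1.14 times the heavy chain sum on the cut side and 0.881 times on the other.

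The largest difference was among the non-classical heavy chains. H2-T22, which is recognised by some gamma delta T cells, was at 2.01 FPKM in ipsilateral and 8.29 FPKM in contralateral DRG (log2 ratio -1.63, interval of the fold 0.131 to 0.448). With 1 FPKM added to both sides, H2-T22 was the 1 member at least 2-fold lower in DRG, where 0.784% of measured genes were. On the same measure 0 members were at least 2-fold higher, where 3.04% were. Plain folds of deposited FPKM were also beyond 2-fold lower for the measured genes H2-t9 (0.396) and Tap1 (0.447). H2-T23, which encodes Qa-1, a ligand of the NKG2A receptor of natural killer cells, was at 17.9 FPKM ipsilaterally and 34.0 contralaterally (-0.89). The gene spelled H2-t9 was at 1.49 against 3.77 FPKM (-0.94). H2-Q7, a Qa-2 gene, was at 5.86 against 9.51 FPKM (-0.62), and H2-M3, which presents formylated bacterial peptides, at 7.66 against 9.37 (-0.26). H2-T9 was the exception among measured class I genes at 14.9 against 14.4 FPKM (0.05), and it falls below 0 when the libraries are rescaled to the same median. The remaining measured heavy chains lay between -0.49 (H2-T10) and -0.09 (H2-T24).

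Reads of these near copies can be shared, so single values are uncertain. The longest protein-coding transcripts of H2-T10 and H2-T22 in GENCODE M21 were 97.4% identical over 1478 aligned bases, those of H2-Q6 and H2-Q7 94.5% over 1155, and those of H2-D1 and H2-K1 90.7% over 1472. The deposited table gives H2-T22 and H2-T9 the same locus (mm9 chromosome 17, 36175353 to 36179647). Summed, both entries came to 16.9 FPKM ipsilaterally and 22.7 contralaterally, which gives -0.40 in place of -1.63 for H2-T22 alone. H2-T23 and H2-T24 also share a locus, and their sum was 29.2 against 46.1 FPKM (-0.64). H2-D1 and H2-Q1 summed to 99.0 against 112 FPKM (-0.18). H2-Q9, whose locus is that of H2-Q7, is listed at 0 in all libraries with the status of too little data. With entries of a shared locus added up, the class I median in DRG was -0.44.

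All 8 genes of class I peptide supply, a group that includes B2m and the regulator Nlrc5, had ratios below 0 in DRG (43.9% of all measured genes did), with a median of -0.40. Intervals of the fold lay below 1 for Tap1, Tap2, Psmb9 and Tapbp and spanned 1 for B2m, Psmb8, Psmb10 and Nlrc5. Tap1, a subunit of the peptide transporter, was at 3.09 FPKM ipsilaterally and 6.92 contralaterally (-0.95, interval of the fold 0.282 to 0.708). Its partner Tap2 was at 19.98 against 28.9 FPKM (-0.51, interval 0.481 to 0.994). Psmb9, an immunoproteasome subunit, was at 7.53 against 13.6 FPKM (-0.77, interval 0.320 to 0.963). The other immunoproteasome subunits differed less, with Psmb8 at 24.01 against 31.1 FPKM (-0.36) and Psmb10 at 11.2 against 13.7 (-0.27). Tapbp, which encodes tapasin, the protein that holds heavy chains to the transporter, was at 22.3 against 30.6 FPKM (-0.44, interval 0.588 to 0.902). Nlrc5, the transactivator of class I genes, was low, at 0.861 against 1.15 FPKM (-0.21), and was the 1 member of DRG to reach 1 FPKM only contralaterally.

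Tap1 and Psmb9 are neighbours read in opposite directions. In the GRCm38.p6 windows their starts lie 225 bases apart on chromosome 17, and 275 bases are common to both windows. The Y box of the Tap1 window shown above, at position -222 on the opposite strand, is the one at -11 in the Psmb9 window. Both genes were lower in ipsilateral DRG. In ipsilateral cord Tap1 was at 2.01 FPKM against 0.724 FPKM contralaterally (0.81, interval of the fold 1.29 to 5.97), and Psmb9 at 1.45 against 2.02 (-0.30, interval 0.219 to 2.36).

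The authors' deposited table calls 3 members significantly lower in ipsilateral DRG and 0 significantly higher, where it calls 1.9% and 4.64% of its 13975 tested genes. In the authors' deposited table these are H2-T22 (q = 0.000371), Tap1 (q = 0.0150) and H2-T23 (q = 0.0291), all class I, and each q-value compares 1 library with 1 library. The interval of the fold lay wholly below 1 for 8 of 22 measured class I genes (6.35% of all genes with an interval did). It lay wholly above 1 for 2 of 7 measured class II genes, Cd74 and H2-Aa (10.1% of all genes). The 22 class I genes share peptide supply, loci and sequence and are not independent.

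**Figure D2:**
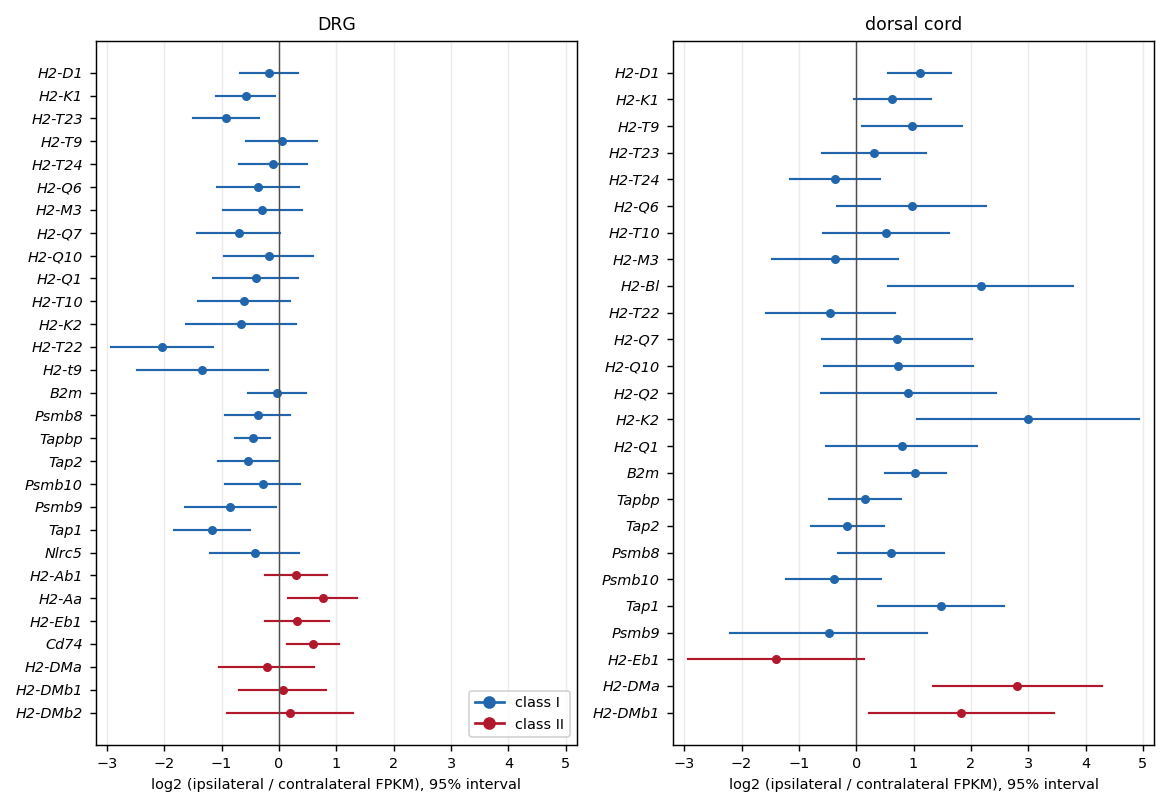
log2 of ipsilateral over contralateral FPKM for each measured class I and class II member with both libraries above 0, in DRG (left) and dorsal cord (right), class I in blue and class II in red. Points are single ratios and bars the 95% interval implied by the authors' deposited test statistic. In DRG the 8 bars wholly below 0 are all class I and the 2 wholly above 0 are Cd74 and H2-Aa, and in cord 8 bars lie wholly above 0.

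The 3 measured chains of the A and E molecules all had ratios above 0 in DRG. H2-Aa, the alpha chain of the A molecule, was at 34.8 FPKM in ipsilateral and 20.5 FPKM in contralateral DRG (log2 ratio 0.73), a fold of 1.69 with an interval of 1.12 to 2.57. Its partner H2-Ab1 was at 44.3 against 36.1 FPKM (0.29, interval 0.841 to 1.79). H2-Eb1, the E beta chain, was at 26.3 against 21.1 FPKM (0.30, interval 0.845 to 1.83). H2-Ea-ps, the E alpha gene that is inactive in C57BL/6 mice, is listed at 0 in all 4 libraries. Cd74, the invariant chain, was at 52.9 against 35.0 FPKM (0.58, interval 1.11 to 2.07). Ciita, the master regulator of class II transcription, stayed under 1 FPKM, at 0.591 against 0.231.

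The ratios of the 3 measured peptide exchange genes lay between -0.20 and 0.14. H2-DMa, a subunit of the exchange factor H2-DM, was at 8.53 FPKM ipsilaterally and 9.91 contralaterally (-0.20). H2-DMb1 was at 7.09 against 6.78 FPKM (0.06, and below 0 with rescaling to the same median), and H2-DMb2 at 3.43 against 3.01 (0.14). Intervals of all 3 spanned 1. H2-Ob, a subunit of the H2-DM inhibitor H2-O, was at 0.297 against 0.217 FPKM, and H2-Oa is listed at 0 on both sides. The authors' deposited table calls none of the class II genes in DRG, where the smallest q was 0.107, for Cd74.

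**Figure D3:**
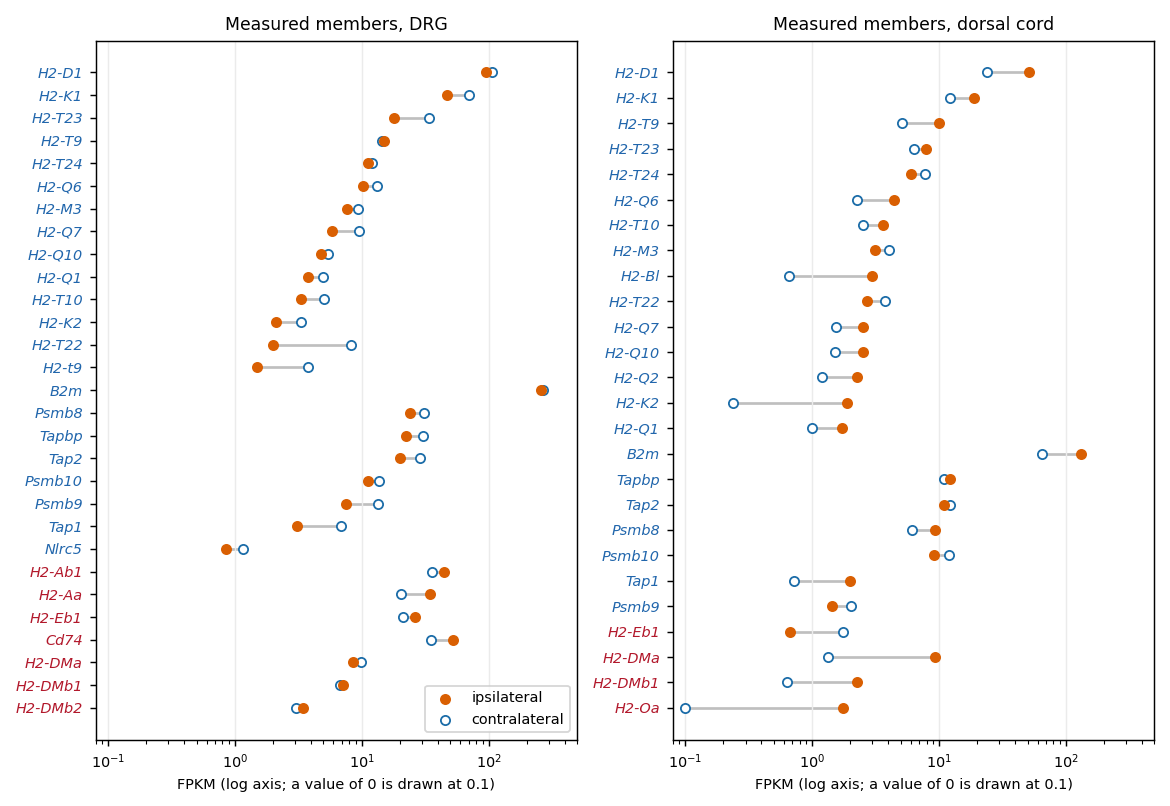
FPKM of each measured class I and class II member (log axis, a value of 0 drawn at 0.1) in ipsilateral (filled) and contralateral (open) libraries of DRG (left) and dorsal cord (right), class I names in blue and class II names in red. In DRG most class I points lie lower ipsilaterally and H2-Aa, H2-Ab1, H2-Eb1 and Cd74 lie higher, while in cord only H2-Eb1 of those 4 reached 1 FPKM.

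Macrophage genes differed more between the sides of DRG than class II genes did. The 10 macrophage and microglia markers all lay above 0 (56.1% of all measured genes did), 8 of them by 2-fold or more (3.04%). They summed to 152 FPKM ipsilaterally and 55.9 contralaterally, with 0 markers listed at 0. The 5 class II chain genes summed to 105 against 77.9 FPKM over the same libraries. Cd74 stood at 2.67 times the level of Csf1r, the macrophage growth factor receptor, ipsilaterally and at 7.76 times contralaterally. Csf1r had the highest log2 ratio of the 10 markers (1.92), where the median was 1.25 and Aif1 was lowest at 0.70. The size of the difference in this quotient depends on the marker chosen. In bulk tissue fewer cells of a type and less RNA per cell cannot be told apart. Of 7 dendritic cell markers 3 were measured (summed 19.7 against 16.4 FPKM), with Xcr1 and Ccr7 under 0.1 FPKM on both sides. Zbtb46, a dendritic cell transcription factor, was at 10.2 against 5.72 FPKM (0.74, interval of the fold 1.22 to 2.62), and the authors' deposited table calls it higher, while Flt3 was at 6.76 against 8.86 FPKM (-0.34, interval 0.513 to 1.14). Of 8 T cell markers 0 were measured (summed 2.35 against 3.43 FPKM, Cd8a listed at 0 on both sides), and of 5 B cell markers 0 were (1.41 against 0.899 FPKM). Sensory neuron markers were lower, with 7 of 8 below 0 and sums of 2399 against 3261 FPKM. Endothelial markers, another class I bearing cell type, summed to 31.1 against 25.3 FPKM with all 6 above 0, and Schwann cell markers to 4489 against 4084 FPKM with all 5 above 0. The part of these cell types in the class I and class II differences was not tested.

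In dorsal cord H2-D1 and the light chain B2m were higher on the cut side, with intervals of the fold above 1, and the interval of H2-K1 spanned 1. H2-D1 (mm9 chromosome 17, 35400038 to 35462354, a locus it shares with H2-Q1) had 51.2 FPKM in ipsilateral cord and 23.8 FPKM in contralateral cord (log2 ratio 1.07). Its fold of 2.15 had an interval of 1.47 to 3.14. H2-K1 was at 18.9 against 12.2 FPKM (0.59, interval 0.973 to 2.47). B2m (chromosome 2, 121945843 to 122011925, a locus the table also gives to Patl2 and Trim69) was at 133 against 65.2 FPKM (1.02, interval 1.41 to 2.95). The heavy chains summed to 122 FPKM ipsilaterally and 74.99 contralaterally, and the B2m level was 1.09 and 0.869 times these sums.

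The other class I heavy chains of cord were mostly higher at low levels. Of 13 measured ones, 10 were above 0 (51.6% of all measured genes were), with a median of 0.47. Of the 10, H2-Bl and H2-K2 reached 1 FPKM only ipsilaterally and so had to lie above 0. H2-T9 was at 10.003 FPKM ipsilaterally and 5.12 contralaterally (0.85, interval 1.07 to 3.58), and H2-Q6 at 4.46 against 2.28 (0.73, interval 0.791 to 4.82). H2-Bl was at 2.99 against 0.664 FPKM (1.26, interval 1.48 to 13.8). H2-K2, annotated as a pseudogene in GENCODE M21, was at 1.91 against 0.239 FPKM (1.23, interval 2.08 to 30.6). H2-T22 (2.74 against 3.75 FPKM), H2-T24 (6.03 against 7.80) and H2-M3 (3.13 against 4.05) were below 0, with intervals that spanned 1. H2-T22 and H2-T9, summed over their shared locus, came to 12.7 against 8.86 FPKM (0.48).

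Peptide supply was uneven in cord. Besides B2m and Tap1, Psmb8 was at 9.33 FPKM ipsilaterally and 6.13 contralaterally (0.54) and Tapbp at 12.2 against 10.9 (0.14). Tap2 was at 10.95 against 12.2 FPKM (-0.14) and Psmb10 at 9.18 against 12.1 (-0.36). Intervals of these 4 spanned 1. The median of the 7 measured genes of this group was 0.14, and Nlrc5 was under 1 FPKM on both sides (0.154 against 0.0602).

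In cord the class II genes above 1 FPKM ipsilaterally were all peptide exchange genes. H2-DMa was at 9.38 FPKM in ipsilateral and 1.33 FPKM in contralateral cord (log2 ratio 2.15), a fold of 7.02 with an interval of 2.53 to 19.5. H2-DMb1 was at 2.28 against 0.639 FPKM (0.9996, just under the 2-fold line with 1 FPKM added). Its plain fold was 3.56, with an interval of 1.16 to 10.9. H2-DMb2 was at 0.657 against 0.629 FPKM. H2-Oa was at 1.75 FPKM ipsilaterally and is listed at 0 contralaterally. The molecules that H2-DM serves were near the floor: H2-Aa was at 0.316 against 0.234 FPKM, H2-Ab1 at 0.166 against 0.0820 and Cd74 at 0.804 against 0.756. H2-Eb1 was at 0.672 against 1.77 FPKM, and its fold had an interval of 0.130 to 1.10. Ciita was at 0.121 against 0.0328 FPKM. Only 4 of the 12 class II members were measured in cord, so their median of 1.23 describes H2-DMa, H2-DMb1, H2-Oa and H2-Eb1. H2-DMb1 and H2-Oa reached 1 FPKM only ipsilaterally and H2-Eb1 only contralaterally, as did H2-Bl, H2-K2 and Tap1 of class I ipsilaterally, so these 6 had to differ to be counted.

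The 10 macrophage and microglia markers summed to 376 FPKM in ipsilateral and 87.4 FPKM in contralateral cord, with 0 listed at 0. Of the 10, 9 were at least 2-fold higher (4.46% of all measured genes were). Among the 9, Cd68 (15.8 against 0.807 FPKM) reached 1 FPKM only ipsilaterally and so had to lie above 0. The class II chain genes summed to 1.15 against 2.09 FPKM in the same libraries, and Cd74 stood at 0.0132 times the level of Csf1r ipsilaterally and 0.0452 times contralaterally. The corresponding sums in DRG were 105 and 77.9 FPKM for the chains. The tables were normalised separately, so levels set across the tissues are approximate. T cell markers summed to 0.553 against 1.004 FPKM and B cell markers to 0.529 against 0.217, with 0 markers of either list measured. Dendritic cell markers summed to 10.7 against 9.17 FPKM, of which Flt3 held 5.68 and 6.37, and Xcr1, Ccr7 and Clec9a are listed at 0 on both sides. The part of these cells in the cord differences was not tested.

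**Figure D4:**
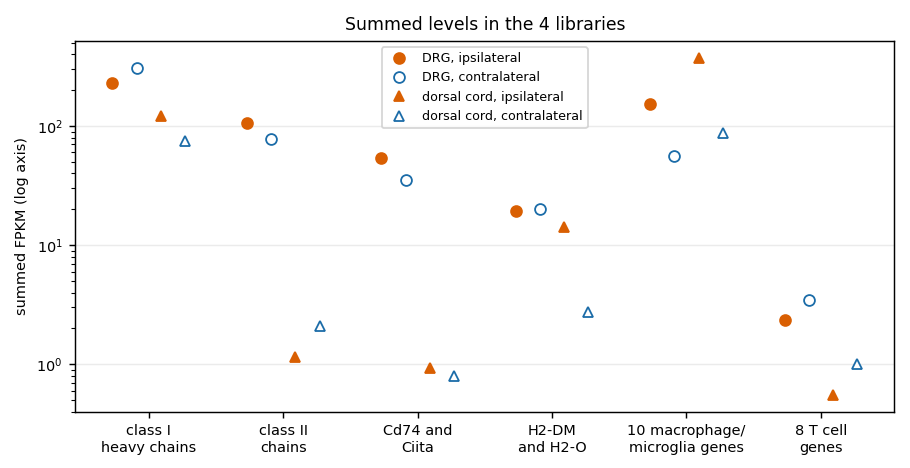
Summed FPKM (log axis) of class I heavy chains, class II chains, Cd74 with Ciita, H2-DM with H2-O, 10 macrophage and microglia markers and 8 T cell markers in the 4 libraries. The class II chains reach 105 and 77.9 FPKM in ipsilateral and contralateral DRG and 1.15 and 2.09 in cord, while the macrophage markers reach 376 and 87.4 FPKM in ipsilateral and contralateral cord.

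With 1 FPKM added to both sides, 6 members in cord were at least 2-fold higher (4.46% of measured genes were) and 0 at least 2-fold lower (1.64%). The 6 are H2-DMa, H2-Oa, H2-Bl, H2-K2, H2-D1 and B2m, of which H2-Oa, H2-Bl and H2-K2 reached 1 FPKM only ipsilaterally and so had to differ. Plain folds were also beyond 2-fold for Tap1 (2.78), H2-DMb1 (3.56) and, lower, H2-Eb1 (0.379), each of which reached 1 FPKM only on its higher side. The authors' deposited table calls 4 members significantly higher and 0 lower, where it calls 4.52% and 1.55% of 14279 tested genes. In the authors' deposited table these are H2-D1 (q = 0.00391), B2m (q = 0.00648), H2-DMa (q = 0.00771) and H2-K2 (q = 0.0445). The interval of the fold lay wholly above 1 for 6 of 22 measured class I genes (12.4% of all genes with an interval) and for 2 of the 3 class II genes with one, and wholly below 1 for 0 members (7.99% of all genes). Those above 1 include H2-Bl, H2-K2, Tap1 and H2-DMb1, which were measured only through the ipsilateral library where they are high, so these counts are not read against the shares of all genes.

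Set side by side, 20 class I genes were measured in both tissues. Of these, 13 were below 0 in ipsilateral DRG and above 0 in ipsilateral cord, 6 were below 0 in both (H2-M3, H2-T22, H2-T24, Psmb9, Psmb10 and Tap2), and H2-T9 was above 0 in both. Tap1 was the 1 member whose interval lay wholly below 1 in DRG and wholly above 1 in cord. H2-K2 and Tap1, both among the 13, reached 1 FPKM in cord only ipsilaterally and so had to lie above 0 there. Of 3 class II genes measured in both, H2-Eb1 was above 0 in DRG and below in cord, H2-DMa the reverse, and H2-DMb1 above 0 in both.

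Genes of the 2 classes are interleaved in the complex. Psmb9, Tap1, Psmb8 and Tap2 lie between H2-DMb1 and H2-Ab1 on mm9 chromosome 17, from 34319043 to 34353266, inside the class II region. In DRG all 4 were below 0 with the class I genes, from -0.95 to -0.36, while the nearest measured class II genes H2-DMb1 (0.06) and H2-Ab1 (0.29) were above 0. Intervals of the fold spanned 1 for Psmb8, H2-DMb1 and H2-Ab1, and H2-DMb1 fell below 0 with rescaling to the same median. Among genes that carry the H2- name without being MHC molecules, H2-Ke6, an enzyme of mitochondrial fatty acid synthesis, was at 6.93 FPKM ipsilaterally and 11.3 contralaterally in DRG (-0.64, interval of the fold 0.358 to 1.04). H2-Ke2, a prefoldin chaperone subunit, was at 67.4 against 72.1 FPKM (-0.10). In cord both were near 0, at -0.02 and -0.16. H2-Gs10 is not counted with these 2: it was left out of both classes only by the naming rule, and lies between H2-Q2 and H2-Q8. It was at 12.6 against 14.5 FPKM in DRG (-0.20) and 5.27 against 2.66 in cord (0.78).

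**Figure D5:**
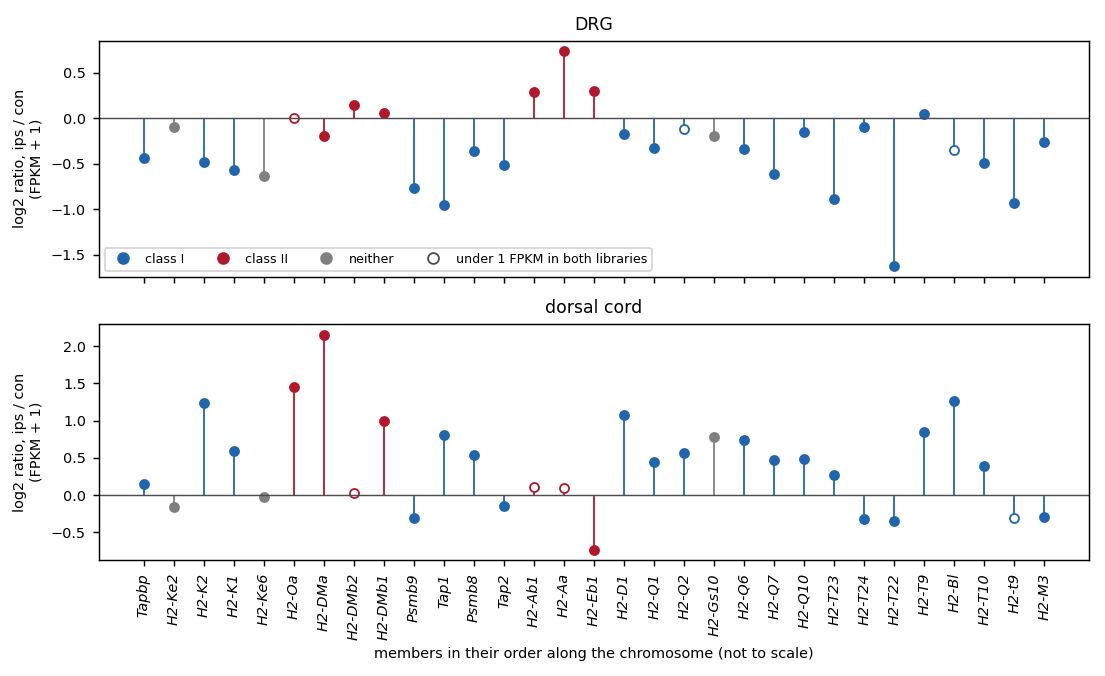
log2 ratio of (ipsilateral + 1) over (contralateral + 1) FPKM for members on mouse chromosome 17 measured in at least 1 tissue, in their order along the chromosome (evenly spaced, ties in alphabetical order), in DRG (top) and dorsal cord (bottom). Open points are under 1 FPKM in both libraries of that tissue. In DRG the block Psmb9, Tap1, Psmb8 and Tap2 (blue, -0.95 to -0.36) sits below 0 between class II genes (red) at 0.06 and 0.29. Fold intervals of both these class II genes spanned 1.

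Other genes of antigen presentation were taken from a separate list. Of 23 genes listed, 22 are in the tables and 18 were measured in each tissue. In DRG 8 were above and 10 below 0 (56.1% and 43.9% of all measured genes were), with a median of -0.10. Irf1, an activator of class I transcription, was at 6.86 FPKM ipsilaterally and 8.40 contralaterally (-0.26). On the class II side Ctss, the protease that trims the invariant chain, was at 32.7 against 10.5 FPKM (1.54), and Cd86, a co-stimulator of T cells, at 1.29 against 0.196 (0.94), and the authors' deposited table calls both higher. Cd86 reached 1 FPKM only ipsilaterally and so had to lie above 0 to be counted. Other genes of the list ran against the class contrast. The class I-like Cd1d1 was at 3.36 against 1.58 FPKM (0.76, interval 1.12 to 4.03) and Mr1 at 3.57 against 2.65 (0.33, interval 0.791 to 2.30). Lgmn, another protease of the class II side, was at 107 against 143 FPKM (-0.42, interval 0.527 to 1.06). The general chaperones differed little, with Calr at 221 against 201 FPKM (0.14), Canx at 195 against 179 (0.12) and Pdia3 at 161 against 159 (0.02).

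In cord 15 of these 18 were above 0 (51.6% of all measured genes were) and 3 below (Erap1, Canx and Psme2), with a median of 0.44. Ifi30, a lysosomal reductase that prepares class II peptides, was at 15.2 FPKM ipsilaterally and 1.82 contralaterally (2.52), Ctss at 360 against 71.9 (2.31) and Cd86 at 3.32 against 0.278 (1.76). The authors' deposited table calls these 3 higher. Cd86 again reached 1 FPKM only ipsilaterally and so had to lie above 0. Tapbpl, which edits class I peptides, was at 7.78 against 3.13 FPKM (1.09), and Irf1 at 2.84 against 1.22 (0.79). The class II promoter factors Rfx5, Rfxap and Rfxank lay between 0.23 and 0.47 in cord and between -0.33 and -0.05 in DRG. Cd4 was under 1 FPKM in all 4 libraries, and so was Cd8a.

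The remaining members were barely detected. In all 4 libraries 18 members stayed under 1 FPKM, the highest of them H2-Q8 at 0.974 FPKM in contralateral DRG, and 6 are listed at 0 throughout. These are Ciita, H2-Ea-ps, H2-Eb2, H2-Ob, H2-Q8, H2-Q9, H2-T3 and the 11 M-series genes other than H2-M3. H2-M1 had 0.821 FPKM in ipsilateral DRG and 0.184 FPKM in contralateral DRG, and its fold had an interval of 0.959 to 20.9. Precision differed by tissue: the test statistics of the authors' deposited table imply a median standard error of the log2 fold of 0.34 for measured members of DRG and 0.56 for those of cord.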

How the data were processed

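Members and gene lists were chosen with earlier results of these data known. Per the labels' protocols, the RNA came off RNeasy Mini columns (QIAGEN) and went into ScriptSeq libraries (Epicentre). The submitters' processing notes name mm9, TopHat 1.4.0 and Cuffdiff 1.3.0. Annotation, filters and strand setting are not stated there. Per the file headers, the deposited tables hold FPKM and the authors' p-values and q-values, which compare 1 library with 1 library, with a test statistic and a log2 fold. That statistic, read as a log2 ratio over its standard error, gave the deposited p-value under a two-sided normal test for 100% of genes with both libraries above 0 (within a relative tolerance of 0.01), so 95% intervals of folds were computed from it. Plain folds are ratios of deposited FPKM. The main measure was log2 of (ipsilateral + 1) over (contralateral + 1) FPKM, which understates differences of low genes. Ratios were taken within a table. Genes named are members at 1 FPKM or more in a tissue, with low members named by their values. Alternatives were other pseudocounts, filters, rescalings, test status and the authors' calls; 3 more (H2-Gs10 in class I, shared loci summed, a filter on the mean) were added after seeing the data. The ratio step was tested on simulated data. Sequences are RefSeq promoters (GRCm38.p6), and transcript identity is from local alignments of GENCODE M21 transcripts with Biopython 1.88. Python 3.11.15 and pandas 2.3.3 were used. The values of 1 gene of the pathway list are not reported here.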

Additional observations from a re-analysis of the deposited data

Results flagged for a closer look

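The class I median and Tap1 lay on opposite sides of the contralateral level in the 2 tissues, which is why they are listed here. Of the 20 class I genes measured in both tissues, 13 lay below 0 in DRG and above 0 in cord, 6 below 0 in both and 1 above 0 in both. Of the 13, H2-K2 and Tap1 reached 1 FPKM in cord only ipsilaterally and so had to lie above 0 there. The class I median log2 ratio was -0.40 over 22 genes in DRG and 0.48 over 22 genes in dorsal cord. Without a filter on low values the cord median was 0. Tap1 had a log2 ratio of -0.95 in DRG and 0.81 in dorsal cord, and its intervals excluded 1 in opposite directions. The difference between tissues was not tested, since each group has 1 library.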

How the results depend on the processing

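No paired analysis was possible because each group has 1 library. In DRG the class I median stayed below 0 and the class II median above 0 under every alternative that gives these medians. Without a filter on low values they were -0.24 and 0.12, and their difference 0.35, since 53 members then count, many near 0. In cord the class I median was 0.65 at a pseudocount of 0.1 FPKM, 0.29 at 3 FPKM and 0 without a filter. The cord class II median was 2.20 at 0.1 FPKM, 0.60 at 3 FPKM, 0.066 without a filter, 2.15 with a filter at 5 FPKM (1 gene) and 0.9996 with a filter on the mean of the libraries (3 genes). The cord difference between classes was 1.55, 0.31, 0.066, 1.75 and 0.52 under these settings, so its size depends on how low genes are treated. Members at least 2-fold lower in DRG numbered 3 at a pseudocount of 0.1 FPKM and 2 with median rescaling. By significance in place of size, the authors' deposited table calls H2-T22, Tap1 and H2-T23 lower in DRG. Of these, Tap1 (-0.95) and H2-T23 (-0.89) were under 2-fold on the main measure. In cord 1 member was 2-fold lower at 0.1 FPKM, and 2 were 2-fold higher at 3 FPKM and 3 with a filter at 5 FPKM. Of 305 recomputed single-member ratios, 303 moved by less than the tolerance and 2, both of H2-Oa in cord with other pseudocounts, by more. The tolerance was the distance from a ratio to the bound of its 95% interval, or 0.1 on the log2 scale for H2-Oa, which has none. Wide intervals made this tolerance loose. H2-K2 in cord went from 1.23 to 2.56 at a pseudocount of 0.1 FPKM and still counted among the 303. The test status setting only drops genes and cannot move a ratio, so its values count among the 303 by construction. Of the recomputed ratios, those of H2-T9 and H2-DMb1 in DRG changed sign, both with median rescaling. Read depth is unknown, which limits the members under 1 FPKM.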
